A study of Mus musculus with 22 samples.

Results

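The 44 genes described here encode the sarcomere, the contractile unit of striated muscle, and the proteins that hold it together. They were taken by name from 43430 genes measured in 22 RNA-seq libraries of mouse muscle stem cells. By role, 15 belong to the thin filament, 8 to the thick filament, 6 to titin and the M-band, 13 to the Z-disc and its links to the cell cortex, and 2 encode factors that fold or assemble myosin. All 44 passed the filter on low counts and were tested. Every group came from the hindlimb muscle of Pax7-zsgreen mice, in which cells that use the stem cell gene Pax7 carry a green fluorescent protein. All cells were lightly fixed with paraformaldehyde by perfusion and were positive for the green signal. The groups were uninjured muscle at ZT4 and ZT16 (3 libraries each), muscle 1 day after cardiotoxin at ZT4 and ZT16 (4 each) and muscle 3 days after cardiotoxin at ZT4 and ZT16 (4 each). Cardiotoxin is a snake venom protein that destroys myofibers and starts regeneration. ZT is zeitgeber time, in hours after lights on. All 3 states carry ZT4 and ZT16 in their labels. The text of the labels ties these times to the injury and does not say what they mark in uninjured muscle. The hour at which cells were taken and the age and sex of the mice are not stated there. Nor do the labels say that replicates came from separate mice, so the p-values measure only the spread between these samples, which may be technical.

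A sarcomere runs from one Z-disc to the next. Actin thin filaments are anchored at the Z-disc by alpha-actinin, and carry the troponin complex, which makes contraction depend on calcium. Myosin thick filaments are joined at the M-band, and titin spans from Z-disc to M-band. A resting muscle stem cell has no sarcomeres, whereas a mature myofiber is packed with them. Stem cells that leave the cell cycle to become myocytes build new sarcomeres in steps. They first use several forms known from embryonic and heart muscle, such as cardiac alpha-actin and cardiac troponin T. A sample of isolated cells can therefore hold sarcomere transcripts of mature myofibers, carried over as free RNA or fragments, and transcripts made by the cells themselves. Myh4 and Pvalb are best known from fast adult fibers and Ckmt2 from striated muscle rich in mitochondria, whereas Myog, Mymk and Myh3 are known from differentiating myocytes.

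The promoters of 4 members are shown to set members that rose beside 1 that fell. Actc1, Tnnt2 and Mybph were among the members that rose most at day 3. Ckm fell at day 3 by less than most of the members that fell (log2 −0.86 over day 1). They were chosen after their values were seen. Each sequence runs from 250 bases before to 50 bases after the annotated start on GRCm38.p6, from RefSeq. Capitals mark matches, on either strand, to the E-box CANNTG (of which CAGCTG is 1 form), to CATTCC, to the MEF2 site or to the CArG box.
Actc1 (chr2:114052826-114053125, minus strand): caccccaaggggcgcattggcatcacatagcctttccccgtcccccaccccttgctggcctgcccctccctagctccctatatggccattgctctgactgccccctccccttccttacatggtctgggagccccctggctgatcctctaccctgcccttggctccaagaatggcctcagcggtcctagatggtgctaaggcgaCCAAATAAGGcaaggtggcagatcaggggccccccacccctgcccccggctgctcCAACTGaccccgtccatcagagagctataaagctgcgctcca
Tnnt2 (chr1:135836084-135836383, plus strand): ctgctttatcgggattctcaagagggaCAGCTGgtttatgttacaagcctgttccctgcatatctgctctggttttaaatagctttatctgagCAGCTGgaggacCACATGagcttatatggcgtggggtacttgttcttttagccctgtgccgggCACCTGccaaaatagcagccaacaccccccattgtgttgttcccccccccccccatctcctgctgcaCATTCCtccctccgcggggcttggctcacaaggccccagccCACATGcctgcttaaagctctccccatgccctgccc
Mybph (chr1:134193198-134193497, plus strand): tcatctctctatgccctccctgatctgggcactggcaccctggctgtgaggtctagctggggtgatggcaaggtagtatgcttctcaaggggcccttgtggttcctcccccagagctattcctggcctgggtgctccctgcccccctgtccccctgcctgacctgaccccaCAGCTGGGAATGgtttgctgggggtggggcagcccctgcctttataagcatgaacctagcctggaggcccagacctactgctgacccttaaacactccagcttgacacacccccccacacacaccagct
Ckm (chr7:19410844-19411143, plus strand): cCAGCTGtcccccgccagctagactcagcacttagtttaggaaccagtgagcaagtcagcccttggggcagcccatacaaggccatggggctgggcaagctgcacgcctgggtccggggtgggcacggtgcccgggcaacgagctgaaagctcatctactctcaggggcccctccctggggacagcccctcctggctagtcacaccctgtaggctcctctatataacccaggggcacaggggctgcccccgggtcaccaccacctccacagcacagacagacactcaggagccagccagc

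In Mybph the CAGCTG lies beside a reverse-strand CATTCC. The promoter of Actc1 holds 1 CArG box, a motif bound by serum response factor, and the Tnnt2 promoter shown holds 5 E-boxes. A second Tnnt2 promoter in the table (chr1:135836739-135837038) holds 2 E-boxes and no CAGCTG or CATTCC. RefSeq promoters were matched for 34 members, 43 promoters in all, and the motifs were counted against 32851 promoters of the same length. The general E-box CANNTG was in 81.4% of the members' promoters and in 72.3% of all promoters. CAGCTG was in 37.2% of the members' promoters and in 16.3% of all promoters. CATTCC was in 30.2% and 14.7%, the MEF2 site in 9.30% and 3.19%, and the CArG box in 16.3% and 1.63%. Among members that rose at day 3 over day 1, 39.3% of 28 promoters held CAGCTG, against 30.8% of 13 promoters of those that fell. For CANNTG the order was the other way, with 75% against 92.3%. These are counts of letters with no test, and a match is not a bound site. The 28 and 13 promoters belong to 24 and 8 genes. Overlapping promoters of 1 gene count the same site again, as for the CArG box of Ldb3, CATTCC of Flnc and CAGCTG of Tnni1. Myoz1, Myom2, Xirp1, Tcap, Tnni2, Myot, Lmod3, Neb, Tnnt3 and Actn3 had no match in the table.

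The other sequence that carries a result lies in Tnnt3, which encodes fast troponin T. Both stretches are from Tnnt3 transcripts that span the place of a 39-base exon. The first is from the one most abundant at day 3 among those that hold the exon. The second is from the one most abundant in uninjured muscle among those that lack it. Both are spliced, run 5′ to 3′ and hold 30 bases on each side of the place of that exon. Capitals mark that exon, at chr7:142507750-142507788 on the plus strand of GRCm38 (GENCODE M21), which the second transcript skips. The bases before it differ too, because the first transcript holds 1 small exon there and the second holds 2 others, all 3 described with the exon shares.
Tnnt3 with the exon: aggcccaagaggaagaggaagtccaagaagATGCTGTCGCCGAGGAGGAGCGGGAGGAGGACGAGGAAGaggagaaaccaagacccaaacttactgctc
Tnnt3 without the exon: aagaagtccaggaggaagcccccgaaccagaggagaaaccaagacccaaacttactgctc

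Libraries held 5965957 to 9751536 estimated counts and 15875 to 23267 detected genes, and the members took 0.149% to 0.716% of the counts. Pax7 had medians of 324 CPM (counts scaled to library size) in uninjured, 56.8 CPM in day 1 and 22.1 CPM in day 3 libraries. Markers of other cells were present. The summed level of 6 macrophage markers was 14.9 to 70.5 CPM in uninjured, 1013 to 3171 CPM in day 1 and 219 to 724 CPM in day 3 libraries. The summed level of 10 smooth muscle and mural markers was 804 to 1612 CPM in uninjured, 421 to 489 CPM in day 1 and 295 to 478 CPM in day 3 libraries. Myh11, a defining smooth muscle gene, had medians of 13.5, 6.19 and 1.94 CPM in the same order. The summed level of 5 fibro-adipogenic markers was 2351 to 3324 CPM in uninjured, 484.5 to 770.1 CPM in day 1 and 1185 to 2451 CPM in day 3 libraries. Most of that sum was Col3a1, with medians of 2787, 566 and 1244 CPM in the same order. Of these 5, 4 (Pdgfra, Dcn, Lum and Col3a1) rose at day 3 over day 1, as did most of the sarcomere genes, with a median log2 change of 1.28 over the 5. Relative to uninjured muscle, 4 of the 5 rose at day 3 and 1 fell, with a median log2 change of 2.13, although the sum was lower. The part of these cells in the results below was not tested. Uninjured ZT16 replicates 1 and 3 stood apart from all other libraries, with 52479 and 43845 CPM summed over 6 early response genes (Fos, Fosb, Junb, Egr1, Atf3 and Ier2, listed after the data were seen), against 844 to 2843 CPM in the other uninjured libraries. Counts and shares over uninjured muscle are also given without them. In bulk samples such as these, fewer cells of a type and less RNA per cell cannot be told apart.

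At day 3 most of the sarcomere genes were higher than in the other states, and some were lower. Relative to day 1, 31 of the 44 members rose, 11 fell and 2 (Tmod4 and Des) did not pass (edgeR's quasi-likelihood test, Benjamini-Hochberg adjusted p under 0.05). Over all 15084 genes tested, 26.7% rose and 28.7% fell in that comparison, 55.4% together. The median log2 fold change was 2.16 over the members and −0.02 over all genes. Relative to uninjured muscle, 28 members rose at day 3 and 11 fell, where 37.9% of all genes rose and 39.1% fell (76.9% together). There the members' median was 1.07 and that of all genes −0.03. Between day 1 and uninjured muscle the direction was mostly down, with 29 members lower at day 1 and 3 higher (Des, Csrp3 and Xirp1), where 40.6% of all genes fell and 34.6% rose (75.2% together). The share of members that rose at day 3 was above that of all genes in both comparisons, and so was the share that fell at day 1. The share of members that fell at day 3 was below that of all genes in both comparisons. The medians were −1.15 and −0.13. Without uninjured ZT16 replicates 1 and 3, chosen after the data were seen, 27 members rose and 11 fell at day 3 over uninjured, and 3 rose and 21 fell at day 1 over uninjured. The calls that ended were Tnnt3 at day 3 over uninjured (edgeR adjusted p 0.0975) and Ckm, Flnc, Myl3, Myom1, Myot, Pdlim3, Tnnt2 and Ttn at day 1 over uninjured (0.0510 to 0.942). These comparisons share libraries, so their counts are not independent. The day 1 calls of Pdlim3, Tnni2, Myl3 and Myot, and those of Flnc and Ttn, did not hold without some single libraries. For Tnni2 these were uninjured ZT4 replicate 2 and ZT16 replicate 2 (edgeR adjusted p 0.0606 and 0.0788), for Myl3 uninjured ZT4 replicate 2 (0.065), and for Myot uninjured ZT4 replicate 3 (0.054). For Pdlim3 they were day 3 ZT4 replicate 1, uninjured ZT4 replicates 1 and 2 and uninjured ZT16 replicates 1 and 2, each alone (0.053 to 0.0928).

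Across the 3 comparisons, 16 members were lower at day 1 than in uninjured muscle and at day 3 higher than in both, and 9 others were higher at day 3 than in both without passing between day 1 and uninjured muscle. Another 5 (Actn3, Lmod2, Myl1, Myom1 and Tnnc2) were lower at day 1 than in uninjured muscle and higher at day 3 than at day 1, with no call between day 3 and uninjured muscle. In 7 members (Ckm, Mybpc1, Myl3, Myot, Myoz1, Nebl and Tcap) day 1 was lower than uninjured muscle and day 3 was lower than both. Mybpc2, Myl2 and Xirp2 were lower at day 3 than in both other states without passing between day 1 and uninjured muscle. Without uninjured ZT16 replicates 1 and 3 these patterns held 11 (the first), 13, 5, 4 (Mybpc1, Myoz1, Nebl and Tcap) and 6 members in the same order. The share of all genes with each pattern is not given, so the counts of members by pattern have no background beside them. In CPM, all 8 day 3 libraries lay above all 8 day 1 libraries in 29 members, below them in 1 (Xirp2), and overlapped them in 14. Over all genes tested, day 3 libraries lay wholly above day 1 in 13.7% and wholly below in 12.3% (26.1% together).

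**Figure D1:**
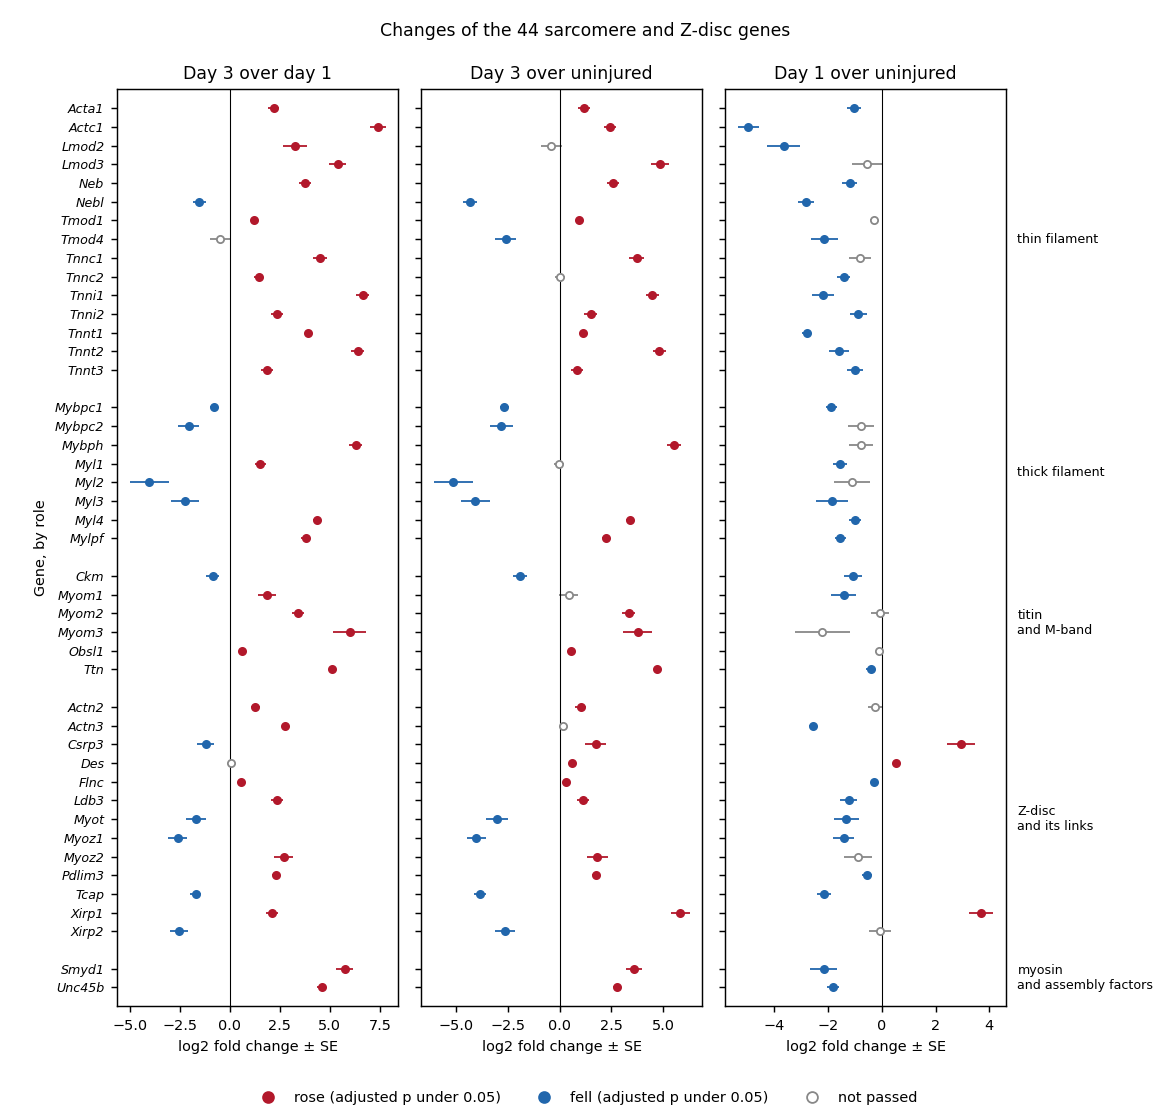
Log2 fold changes of the 44 members by role, for day 3 over day 1, day 3 over uninjured and day 1 over uninjured, from 1 edgeR fit of 22 libraries, with bars of 1 SE. The members spread from 7.39 for Actc1 to −4.02 for Myl2 at day 3 over day 1, while at day 1 over uninjured most lie below 0.

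The thin filament had the most members that rose, 13 of 15 at day 3 over day 1, with Nebl lower and Tmod4 not passing. Relative to uninjured muscle 11 of the 15 rose and 2 fell. At day 1, 12 of the 15 were lower than in uninjured muscle and none was higher. Actc1, which encodes cardiac alpha-actin (GRCm38 chromosome 2, 114047282 to 114053548), had the highest log2 fold change of all members between day 3 and day 1. It lay between 20.5 and 86.0 CPM (median 41.1) in uninjured libraries, between 0.467 and 3.81 CPM (1.198) at day 1 and between 183 and 444 CPM (238) at day 3. The 3 states did not overlap, and each difference passed (log2 7.39 ± 0.39 at day 3 over day 1, 2.44 ± 0.30 at day 3 over uninjured, −4.96 ± 0.40 at day 1 over uninjured). Acta1, which encodes skeletal alpha-actin, lay between 230 and 537 CPM (441) in uninjured, 62.3 and 390 CPM (185) in day 1 and 542 and 1517 CPM (903) in day 3 libraries. Its day 3 libraries were above all others, while those of day 1 and uninjured muscle overlapped. Its log2 change at day 3 over day 1 was 2.20 ± 0.27. The 2 actins have near-identical coding sequences, so the division of reads between them rests on the authors' estimation.

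The troponins rose together at day 3 over day 1, all 7 of them. Troponin T binds tropomyosin, troponin I inhibits actomyosin and troponin C binds calcium, and their genes are named for the cardiac, slow or fast muscle they are best known from. Tnnt2, the cardiac troponin T gene (chromosome 1, 135836354 to 135852260), lay between 3.00 and 12.6 CPM (8.04) in uninjured libraries, between 0.759 and 3.99 CPM (2.56) at day 1 and between 136 and 290 CPM (198) at day 3. All day 3 libraries were far above the rest (log2 6.39 ± 0.31 over day 1 and 4.81 ± 0.31 over uninjured). Tnni1, which encodes slow troponin I, lay between 2.08 and 13.1 CPM (4.21) in uninjured, 0.409 and 2.33 CPM (1.05) in day 1 and 75.9 and 176 CPM (120) in day 3 libraries. Its log2 change was 6.64 ± 0.33 at day 3 over day 1. Tnnc1, the troponin C of slow and cardiac muscle, lay between 1.13 and 4.46 CPM (3.50), 0.644 and 4.29 CPM (1.65), and 18.3 and 70.2 CPM (41.3) in uninjured, day 1 and day 3 libraries. Uninjured and day 1 libraries of Tnnc1 overlapped and did not pass (log2 −0.81 ± 0.42).

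The fast troponins were already abundant in uninjured libraries, and the distance to day 3 was smaller. Tnnc2 lay between 74.5 and 187 CPM (138) in uninjured, 14.8 and 92.2 CPM (42.7) in day 1 and 83.3 and 180 CPM (138) in day 3 libraries. Day 3 and uninjured libraries of Tnnc2 covered the same range, with a log2 difference of 0.03 ± 0.23 that did not pass. Tnni2 lay between 17.1 and 61.3 CPM (50.4), 3.99 and 45.9 CPM (25.1), and 104 and 169 CPM (121) in uninjured, day 1 and day 3 libraries, with day 3 above all others. Tnnt3 lay between 38.4 and 142 CPM (99.2), 14.3 and 89.3 CPM (44.5), and 104 and 257 CPM (169) in the same order. Its day 3 libraries were above those of day 1 and overlapped those of uninjured muscle (log2 1.86 ± 0.28 and 0.86 ± 0.29). Tnnt1, slow troponin T, lay between 26.1 and 63.3 CPM (37.2), 3.86 and 8.86 CPM (4.995), and 57.5 and 121 CPM (83.9), and its log2 changes were 3.91 ± 0.16 at day 3 over day 1 and 1.12 ± 0.15 at day 3 over uninjured.

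Among genes that set thin filament length and cap its ends, most also rose. Neb encodes nebulin, which lies along the thin filament, and was at 11.1 to 37.9 CPM (20.1) in uninjured, 3.46 to 12.6 CPM (10.7) in day 1 and 78.5 to 204 CPM (136) in day 3 libraries. Nebl, which encodes the nebulin relative nebulette and the related LIM-nebulette form, differed in the other direction. It was at 13.3 to 42.0 CPM (38.0) in uninjured, 1.52 to 7.78 CPM (4.65) in day 1 and 0.656 to 3.14 CPM (1.32) in day 3 libraries. Day 3 and day 1 libraries of Nebl overlapped, and both were wholly below uninjured ones (log2 −1.52 ± 0.34 at day 3 over day 1, −4.34 ± 0.34 at day 3 over uninjured). The leiomodins promote actin nucleation and the tropomodulins cap the pointed end. Lmod3 was at 0 to 2.41 CPM (1.12) in uninjured, 0 to 2.07 CPM (0.510) in day 1 and 17.3 to 58.2 CPM (30.8) in day 3 libraries. Lmod2 changed by 3.26 ± 0.60 at day 3 over day 1 and by −0.39 ± 0.51 at day 3 over uninjured, which did not pass. Tmod1 rose in both day 3 comparisons (1.21 ± 0.13 and 0.92 ± 0.14), whereas Tmod4 had −0.46 ± 0.54 at day 3 over day 1, which did not pass, and fell by 2.60 ± 0.52 at day 3 over uninjured.

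The thick filament divided evenly at day 3 over day 1, with 4 of 8 members higher (Mybph, Myl4, Mylpf and Myl1) and 4 lower (Myl2, Mybpc2, Myl3 and Mybpc1). Mybph, which encodes a relative of the myosin-binding protein C family (chromosome 1, 134193448 to 134201232), was at 0.481 to 3.58 CPM (2.01) in uninjured, 0.455 to 2.16 CPM (1.10) in day 1 and 56.9 to 173 CPM (84.9) in day 3 libraries. Its log2 changes were 6.29 ± 0.32 over day 1 and 5.51 ± 0.34 over uninjured muscle, the highest of all members in the second comparison after Xirp1. The genes of the MyBP-C family proper fell instead. Mybpc1, the slow form, was at 86.9 to 172 CPM (121), 13.9 to 58.7 CPM (31.3) and 11.4 to 25.1 CPM (19.7) in uninjured, day 1 and day 3 libraries. Uninjured libraries of Mybpc1 lay wholly above both injured states (log2 −2.66 ± 0.22 at day 3 over uninjured). Mybpc2, the fast form, was at 13.0 to 35.8 CPM (20.2), 2.19 to 19.8 CPM (14.04) and 0.118 to 10.1 CPM (2.37) in the same order, with a log2 change of −2.05 ± 0.52 at day 3 over day 1.

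The myosin light chains split by form. Myl4, the embryonic and atrial essential light chain, was at 4.81 to 6.86 CPM (5.60) in uninjured, 1.52 to 4.98 CPM (2.58) in day 1 and 38.8 to 88.6 CPM (60.7) in day 3 libraries (log2 4.38 ± 0.20 at day 3 over day 1). Mylpf, the fast regulatory light chain, was at 15.6 to 33.0 CPM (26.5), 3.86 to 15.1 CPM (9.16) and 74.8 to 157 CPM (114) in the same order, and its 3 states did not overlap. Myl1, the fast essential light chain, was at 68.2 to 213 CPM (156), 13.1 to 92.4 CPM (49.2) and 98.2 to 215 CPM (141), so that day 3 and uninjured libraries overlapped (log2 −0.03 ± 0.26, not passed). The light chains of slow and ventricular muscle were low throughout and lowest at day 3. Myl3 was at 1.60 to 7.43 CPM (3.65), 0 to 4.98 CPM (0.858) and 0 to 0.525 CPM (0.232) in uninjured, day 1 and day 3 libraries. Myl2 had 80 counts in all uninjured libraries together, 45 in all day 1 libraries and 2 in all day 3 libraries. The ratio of its summed CPM at day 3 to day 1 was 0.0425, with an exact 95% interval of 0.00500 to 0.163 that covers counting error only.

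Among titin and the M-band genes, 5 of 6 rose at day 3 over day 1 and Ckm fell. Ttn, which encodes titin, the protein that spans each sarcomere as a spring and template, was at 11.1 to 28.1 CPM (20.9) in uninjured, 11.1 to 19.0 CPM (14.1) in day 1 and 349 to 728 CPM (492) in day 3 libraries. Its lowest day 3 library was far above every other library (log2 5.12 ± 0.17 over day 1, 4.72 ± 0.18 over uninjured). Between day 1 and uninjured muscle Ttn changed by −0.40 ± 0.17 (adjusted p 0.0381 in edgeR). That call did not hold without day 1 ZT4 replicate 3 or 4, day 1 ZT16 replicate 1, 2 or 4, day 3 ZT4 replicate 1, uninjured ZT4 replicate 1 or 2 or uninjured ZT16 replicate 1, each left out alone (edgeR adjusted p 0.0543 to 0.277). With offsets for effective length the change was 0.38 (edgeR adjusted p 0.401).

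The myomesins, which cross-link thick filaments in the M-band, differed in level. Myom2 was at 0.990 to 6.41 CPM (3.31), 2.06 to 5.21 CPM (3.04) and 19.0 to 53.3 CPM (31.7) in uninjured, day 1 and day 3 libraries (log2 3.41 ± 0.28 at day 3 over day 1). Myom3 had 9 counts over all uninjured, 3 over all day 1 and 173 over all day 3 libraries, and the ratio of its summed CPM at day 3 to day 1 was 55.2 (exact 95% interval 18.6 to 270.3). Myom1 changed by 1.86 ± 0.44 at day 3 over day 1 and by 0.44 ± 0.44 at day 3 over uninjured, which did not pass. Obsl1, an obscurin relative that is also used outside muscle, moved least of those that rose besides Flnc, with 0.63 ± 0.09 and 0.54 ± 0.10. Ckm encodes muscle creatine kinase, which regenerates ATP at the M-band (chromosome 7, 19404776 to 19422841). It was at 91.2 to 254 CPM (173) in uninjured, 16.7 to 149 CPM (83.8) in day 1 and 20.4 to 68.9 CPM (45.0) in day 3 libraries. All day 3 libraries of Ckm lay below all uninjured ones (log2 −1.92 ± 0.34), while day 3 and day 1 overlapped (−0.86 ± 0.32, adjusted p 0.0296 in edgeR). The second call did not hold without day 1 ZT4 replicate 3 or 4, day 1 ZT16 replicate 3 or 4, day 3 ZT4 replicate 2 or day 3 ZT16 replicate 2, each left out alone (adjusted p 0.0547 to 0.0651).

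The Z-disc and its links held both directions, with 7 of 13 members higher, 5 lower and Des not passing at day 3 over day 1. The alpha-actinins cross-link actin at the Z-disc. Actn3, the fast form, was at 191 to 503 CPM (331) in uninjured, 33.8 to 68.4 CPM (57.0) in day 1 and 261 to 429 CPM (369) in day 3 libraries. Day 1 libraries of Actn3 were below all others (log2 2.74 ± 0.14 at day 3 over day 1), and day 3 and uninjured libraries overlapped (0.19 ± 0.14, not passed). Actn2, used in all striated fibers, was at 3.05 to 17.5 CPM (7.88), 4.12 to 10.4 CPM (7.38) and 10.04 to 23.8 CPM (16.8) in uninjured, day 1 and day 3 libraries, and day 3 overlapped both other states (log2 1.28 ± 0.23 at day 3 over day 1).

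The 5 Z-disc members lower at day 3 than at day 1 were Myoz1, Xirp2, Myot, Tcap and Csrp3. Tcap encodes telethonin, which caps titin at the Z-disc, and was at 18.9 to 64.3 CPM (44.7) in uninjured, 2.57 to 16.3 CPM (9.83) in day 1 and 1.42 to 6.30 CPM (2.31) in day 3 libraries. Myoz1, which binds calcineurin and alpha-actinin in fast fibers, was at 10.4 to 39.6 CPM (26.3), 1.54 to 20.1 CPM (9.16) and 0.354 to 4.85 CPM (1.07) in the same order. Both were wholly lower at day 3 than in uninjured muscle (log2 −3.84 ± 0.28 for Tcap, −4.02 ± 0.46 for Myoz1), and their day 3 and day 1 libraries overlapped (−1.69 ± 0.27 and −2.61 ± 0.45). Myot, which encodes myotilin, fell by 3.02 ± 0.52 on the log2 scale at day 3 over uninjured. Myoz2, the relative of Myoz1 found in slow and heart muscle, was highest at day 3, with 0.143 to 2.84 CPM (0.855) in uninjured, 0.257 to 0.910 CPM (0.548) in day 1 and 2.57 to 6.88 CPM (3.31) in day 3 libraries. Xirp2 was at 1.02 to 7.52 CPM (4.49), 2.32 to 7.42 CPM (3.99) and 0 to 1.39 CPM (0.794) in uninjured, day 1 and day 3 libraries.

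The genes higher at day 1 than in uninjured muscle were all in the Z-disc group. Xirp1 encodes an actin-binding repeat protein known from sites of myofiber damage and remodelling. It was at 0 to 1.56 CPM (1.22) in uninjured, 2.70 to 30.7 CPM (13.6) in day 1 and 31.9 to 89.2 CPM (64.3) in day 3 libraries, with no overlap between states. Its log2 changes were 3.69 ± 0.46 at day 1 over uninjured and 5.82 ± 0.45 at day 3 over uninjured. Csrp3, the muscle LIM protein, was at 0 to 4.59 CPM (1.21), 2.57 to 21.2 CPM (12.9) and 2.13 to 7.36 CPM (5.07) in uninjured, day 1 and day 3 libraries. It was highest at day 1, with overlapping libraries (log2 2.95 ± 0.51 at day 1 over uninjured, −1.20 ± 0.41 at day 3 over day 1). Des encodes desmin, the intermediate filament that ties Z-discs together and is present in muscle stem cells too. It was at 618 to 858 CPM (774), 958 to 1172 CPM (1077) and 1054 to 1359 CPM (1087) in the same order, with log2 changes of 0.52 ± 0.07 at day 1 over uninjured and 0.07 ± 0.07 at day 3 over day 1, which did not pass. The day 1 and day 3 libraries of Des thus covered overlapping ranges, above all uninjured ones. Flnc, filamin C, was at 137 to 258 CPM (187), 117 to 177 CPM (161) and 194 to 252 CPM (231), and its call at day 1 over uninjured (−0.28 ± 0.11) did not hold without 1 of 8 single libraries (day 1 ZT4 replicates 2 and 3, day 1 ZT16 replicate 4, day 3 ZT4 replicate 1, uninjured ZT4 replicates 1 and 2, uninjured ZT16 replicates 1 and 3; edgeR adjusted p 0.0548 to 0.342). Pdlim3 and Ldb3, which encode PDZ and LIM proteins that bind alpha-actinin, rose by 2.30 ± 0.18 and 2.37 ± 0.30 at day 3 over day 1.

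Both assembly factors rose. Unc45b encodes a chaperone that folds the myosin motor domain, and was at 5.07 to 16.5 CPM (8.05) in uninjured, 1.26 to 3.96 CPM (2.68) in day 1 and 43.5 to 81.7 CPM (63.9) in day 3 libraries. Smyd1 encodes a methyltransferase needed to assemble thick filaments, and was at 0 to 4.63 CPM (2.70), 0 to 1.37 CPM (0.551) and 24.6 to 37.9 CPM (34.3). In both, all day 3 libraries were above all others, with log2 changes of 4.58 ± 0.21 and 5.74 ± 0.41 at day 3 over day 1.

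**Figure D2:**
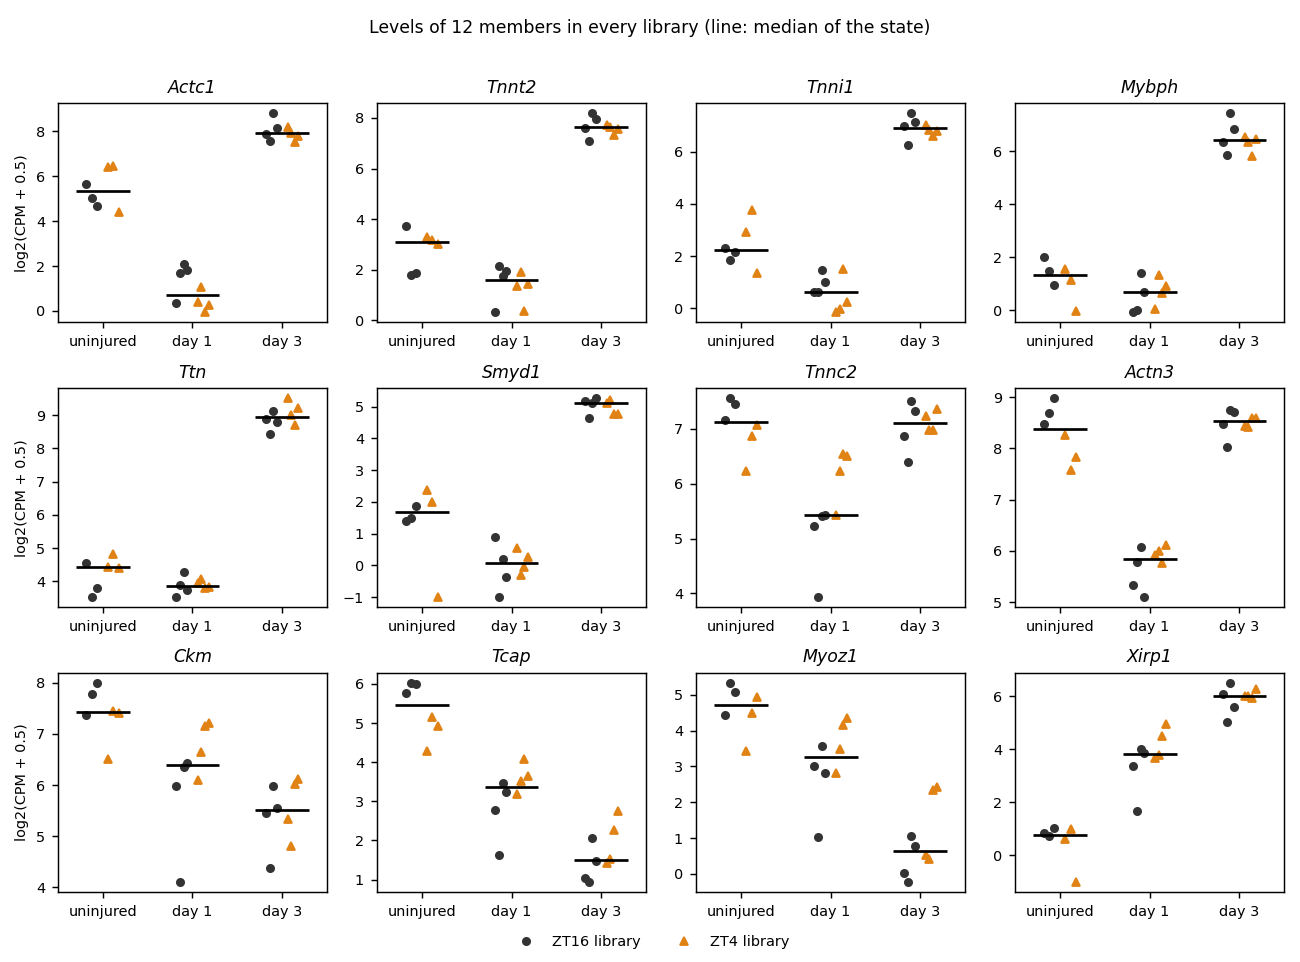
Log2(CPM + 0.5) of selected members in each library by state, with ZT16 libraries as circles, ZT4 libraries as triangles and a line at the median of each state. Actc1, Tnnt2, Mybph and Ttn are highest at day 3 (median CPM 238, 198, 84.9 and 492), whereas Ckm, Tcap and Myoz1 have their highest medians in uninjured libraries (173, 44.7 and 26.3).

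On the per-length scale the order of abundance at day 3 was led by Acta1, with a median of 948 TPM (a length-scaled measure of transcripts, 485 to 1487), and Des, with 536 TPM. Tnnc2 (351 TPM), Myl1 (310 TPM), Tnni2 (289 TPM), Tnnt3 (279 TPM), Tnnt2 (263 TPM), Mylpf (260 TPM) and Actc1 (241 TPM) followed. The mixture of forms within a family was measured as a share of the family's TPM, in 9 shares and 27 comparisons with exact two-sided permutation tests, adjusted by Benjamini-Hochberg over the 27. At day 3 the share of the cardiac or slow form was higher than at day 1 in the actins and in troponins T, I and C, and that of the embryonic light chain was higher too.

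Tnnt2 made up 1.57 to 8.48% of troponin T transcripts (median 3.91%) in uninjured, 0.715 to 18.7% (3.72%) in day 1 and 36.1 to 41.8% (38.0%) in day 3 libraries. Day 3 was 33.3 percentage points above day 1 and 33.6 points above uninjured muscle, and its 8 libraries were closer to each other than those of day 1. Actc1 made up 4.28 to 26.2% (8.65%) of the 2 actins in uninjured, 0.115 to 4.03% (0.564%) in day 1 and 17.7 to 25.4% (22%) in day 3 libraries. Its difference was 20.2 points at day 3 over day 1, and 10.01 points at day 3 over uninjured, where the ranges overlapped (exact permutation test, adjusted p 0.0210). Tnni1 made up 2.70 to 21.2% (5.92%), 0.975 to 14.6% (3.62%) and 30.4 to 43.9% (37.6%) of its pair with Tnni2. Day 3 was 33.0 points above day 1. Tnnc1 made up 1.38 to 3.64% (2.12%), 1.01 to 8.84% (3.08%) and 17.7 to 27.5% (24.0%) of its pair with Tnnc2, 19.1 points higher at day 3 than at day 1. Myl4 made up 1.24 to 5.49% (2.89%), 2.81 to 14.2% (4.77%) and 19.2 to 27.3% (23.5%) of its pair with Myl1, 17.1 points higher at day 3 than at day 1.

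Not every share followed that order. Actn2 made up 0.995 to 4.06% (1.76%) of its pair with Actn3 in uninjured, 5.36 to 12.6% (9.73%) in day 1 and 2.89 to 4.78% (3.81%) in day 3 libraries, so it was highest at day 1 and 5.98 points lower at day 3. Nebl made up 26.8 to 87.8% (55.1%), 17.9 to 38.4% (22.04%) and 0.182 to 1.44% (1.03%) of its pair with Neb. Short annotated fragments of Neb raise its TPM, so the level of that share is uncertain. Tnnt1 made up 17.7 to 58.3% (32.4%), 7.73 to 21.2% (11.7%) and 29.4 to 42.3% (36.2%) of its pair with Tnnt3. Unlike Actn2 and Nebl, its share was higher at day 3 than at day 1, by 22.6 points and with no overlap. Day 3 and uninjured muscle differed by 2.04 points, which did not pass (exact permutation test, adjusted p 0.790). That pooled difference joins opposite ones. Within ZT4 the share averaged 34.4 ± 3.84% at day 3 and 46.1 ± 10.6% in uninjured muscle, and within ZT16 it averaged 38.0 ± 3.10% at day 3 and 22.2 ± 3.97% in uninjured muscle (SD, n = 4 and 3). The libraries did not overlap at either time, with day 3 below uninjured muscle at ZT4 and above it at ZT16. The long (MLC1) transcripts were a median of 2.85%, 1.57% and 2.16% of coding Myl1 transcripts, and none of the 3 comparisons passed. In all, 8 of 9 shares passed at day 3 over day 1, each with an exact p of 0.0001554 (adjusted 0.0005245), the smallest that 8 against 8 libraries can give. At day 3 over uninjured 7 of 9 passed, and at day 1 over uninjured 4 of 9. Without uninjured ZT16 replicates 1 and 3, 8, 6 and 3 passed, as Actc1 at day 3 over uninjured (8.23 points, exact permutation test, adjusted p 0.115) and Nebl at day 1 over uninjured (−26.1 points, adjusted p 0.103) did not. Left out alone, uninjured ZT4 replicate 1 or 3 or uninjured ZT16 replicate 2 or 3 ended the call of Actn2 at day 3 over uninjured (exact permutation test, adjusted p 0.0599 to 0.0685). Without day 1 ZT4 replicate 4, day 1 ZT16 replicate 4 or uninjured ZT4 replicate 1 the share of Myl4 passed at day 1 over uninjured (0.0221 to 0.0425), and without uninjured ZT4 replicate 1 that of MLC1 passed at day 3 over uninjured (0.0315). The 8 shares also had no overlap between day 3 and day 1 within ZT4 and within ZT16.

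**Figure D3:**
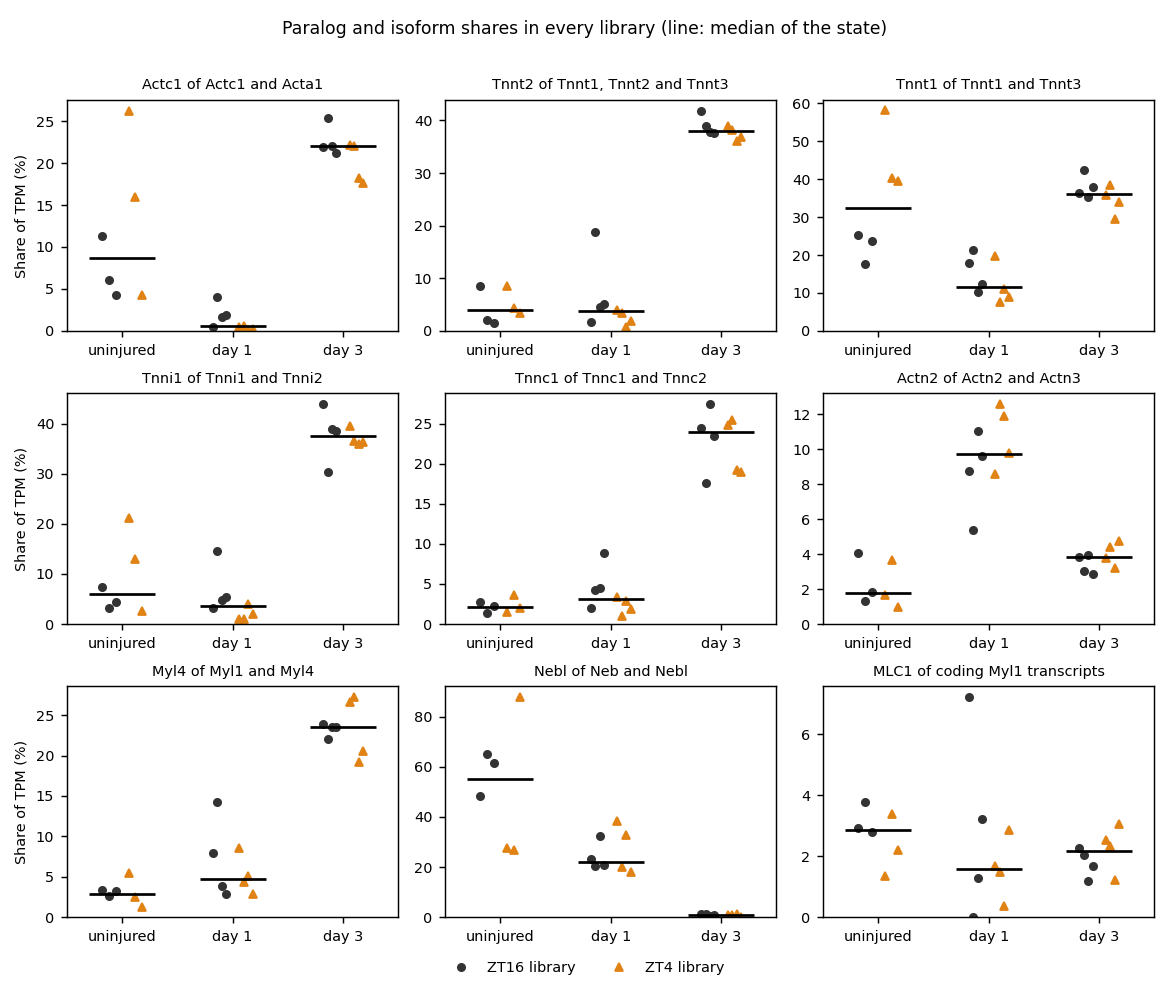
Share of TPM, in percent, that 1 form makes up of its family, in each of the 22 libraries by state, with lines at the medians. Tnnt2, Tnni1, Tnnc1 and Myl4 have day 3 libraries above all others, with medians of 38.0%, 37.6%, 24.0% and 23.5%, while the share of Actn2 is highest at day 1.

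Within Tnnt3 the transcripts themselves differed between states. The 39-base exon shown above lies in a part of fast troponin T known for splice forms that change during development. It was in 0 to 3.24% (median 0%) of Tnnt3 TPM in uninjured, 0 to 7.14% (0.972%) in day 1 and 50.9 to 69.8% (60.3%) in day 3 libraries. Transcripts with the exon summed to 0 to 5.19 TPM (0) in uninjured, 0 to 4.19 TPM (0.635) in day 1 and 77.7 to 241 TPM (171) in day 3 libraries. All day 3 libraries were above all others. Transcripts without the exon were at 67.6 to 264 TPM (155), 23.8 to 139 TPM (71.9) and 63.8 to 143 TPM (108), and these ranges overlapped. Other small Tnnt3 exons also differed. The 12-base exon at chr7:142505288-142505299 (CCCCCGAACCAG) was in medians of 68.6%, 71.7% and 10.2% in uninjured, day 1 and day 3 libraries. The 15-base exon at chr7:142505516-142505530 (AGGAAGTCCAAGAAG) was in 40.8%, 33.8% and 88.6%, and the one at chr7:142504250-142504264 (AAGTCCAGGAGGAAG) in 70.8%, 82.4% and 40.5%. These exons were found by comparing 178 exons of the 14 members with at least 10 TPM in every uninjured and day 3 library, of which 5 exons in 2 members (Tnnt3 and Tnnt1) shifted by at least 20 points. They were picked for their difference, so no test is given. How RSEM divides reads between such similar transcripts limits the precision of these shares.

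**Figure D4:**
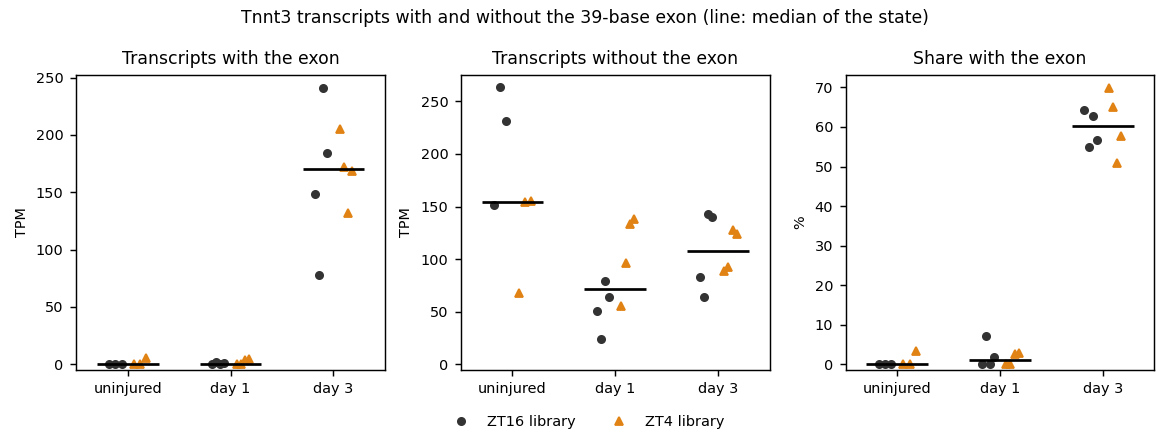
TPM of Tnnt3 transcripts with and without the 39-base exon and the share with it in percent, in each of the 22 libraries by state, with lines at the medians. Transcripts with the exon are near 0 outside day 3 and at 77.7 to 241 TPM at day 3, while those without it overlap between states.

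Genes outside the members set these levels beside adult myofiber RNA and differentiation. Of 14 adult myofiber genes, 5 rose and 4 fell at day 3 over day 1, and 3 rose and 7 fell at day 3 over uninjured. At day 1 all 14 were below uninjured muscle in log2 change and 10 passed. Their sum was at 397 to 966 CPM in uninjured, 151 to 387 CPM in day 1 and 2057 to 2610 CPM in day 3 libraries, of which Eno3, the muscle enolase, had a median of 1820 CPM at day 3. Myh4, the myosin heavy chain of the fastest fibers, was at 16.03 to 83.9 CPM (46.0), 3.60 to 80.1 CPM (36.0) and 2.87 to 25.3 CPM (7.21) in uninjured, day 1 and day 3 libraries. Pvalb, the calcium buffer of fast fibers, was at 10.3 to 34.3 CPM (27.1), 2.45 to 15.9 CPM (9.69) and 0 to 3.54 CPM (0.291). Ckmt2, mitochondrial creatine kinase, was at 4.18 to 17.5 CPM (13.2), 2.19 to 8.55 CPM (5.49) and 0.103 to 1.18 CPM (0.301). These 3 genes were picked from the 14 after their values were seen, so a likeness to falling members can follow from that choice. They had their lowest medians at day 3, as had Tcap, Myoz1, Myot and Ckm among the members. Their log2 changes at day 3 over day 1 were −2.09 ± 0.44 for Myh4, −3.52 ± 0.58 for Pvalb and −3.57 ± 0.42 for Ckmt2. Mb, which encodes myoglobin, also fell (−0.95 ± 0.25). The 5 that rose at day 3 over day 1 were Eno3 (4.77 ± 0.14), Myh1, a fast myosin heavy chain (2.93 ± 0.30), Pgam2, the muscle phosphoglycerate mutase (2.36 ± 0.25), Atp2a1, the calcium pump of fast fibers (2.18 ± 0.22), and Casq1, the calcium store protein calsequestrin (2.17 ± 0.27). The adult list therefore did not move in 1 direction.

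Of 13 differentiation and fusion genes, 12 rose and 1 (Sgca) fell at day 3 in both comparisons. Myog, the transcription factor that starts terminal differentiation, was at 96.6 to 533 CPM (271) in uninjured, 3.17 to 26.1 CPM (8.61) in day 1 and 1117 to 2223 CPM (1632) in day 3 libraries. Myh3, embryonic myosin heavy chain, was at 0 to 4.44 CPM (0.569), 0 to 0.644 CPM (0.196) and 136 to 403 CPM (311). Mymk, the fusion protein myomaker, was at 23.7 to 83.3 CPM (36.1), 0 to 1.54 CPM (0.591) and 208 to 487 CPM (278). Myog and Mymk were therefore lowest at day 1 and present in uninjured libraries, like Actc1 among the members.

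Within each state, members were compared over libraries with the log2 of the summed CPM of both lists, in 264 relations with exact permutation p-values. These libraries share their depth and scaling, and the sums were taken on the same libraries. Pearson's r with the differentiation sum was at least 0.8 for 20 of 44 members over the 8 day 3 libraries, 0 over the 8 day 1 libraries and 1 over the 6 uninjured libraries. Among all tested genes outside that list it was at least 0.8 for 1.75%, 1.40% and 3.47% in the same order. With the adult sum it was at least 0.8 for 6, 15 and 8 members, and for 1.34%, 1.13% and 6.67% of all genes outside the list. A few genes dominate that sum. At day 3 its median was 2280 CPM and that of Eno3, which rose over day 1, was 1820 CPM. In uninjured libraries the medians were 661 CPM for the sum and 330 CPM for Atp2a1. Uninjured values rest on 6 libraries, 2 of which stood apart, and were not recomputed over 4. The permutations did not keep ZT4 and ZT16 libraries apart. In uninjured muscle the adult sum was 796 to 966 CPM at ZT16 and 397 to 525 CPM at ZT4. Uninjured r with the adult sum therefore includes that difference. At day 3, Tnnt2 had r = 0.980 with the differentiation sum (exact permutation p 0.000397, adjusted 0.0157) and Spearman's rho of 0.881 (exact permutation p 0.00724, adjusted 0.101). Without the 2 libraries farthest from the median of that sum, r for Tnnt2 was 0.931. Mybph had r = 0.953 (0.912 without 2 libraries) and Nebl −0.401. At day 1, Tnnt3 had r = 0.958 with the adult sum (exact permutation p 0.000223, adjusted 0.0157), rho of 0.952 (exact permutation p 0.00114, adjusted 0.0602) and r = 0.943 without 2 libraries. Tnnt2 and Actc1 at day 1 had r of −0.362 and −0.426 with that sum. Without the 2 farthest libraries, 8 members in place of 20 kept r of at least 0.8 with the differentiation sum at day 3, so the number depends on which libraries are used. Their omission also narrows the range of the sum, which can by itself lower r.

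The sum of Myh4, Pvalb and Ckmt2 alone, chosen after the data were seen, gave r of at least 0.8 for 4 members at day 3, 16 at day 1 and 14 in uninjured libraries, and for 1.25%, 2.07% and 2.04% of all other genes. At day 3 the 4 were Myoz1 (0.902), Tcap (0.894), Tmod4 (0.869) and Myot (0.856), whereas Actc1 had −0.184. Without the 2 libraries farthest from the median these r fell to 0.466, 0.608, 0.693 and 0.538, so relations of that strength at day 3 were not seen without them. Leaving out the ends also narrows the range of the sum, so the lower r does not show what the relations rest on. At day 1 Ckm had 0.989 and Myoz1 0.972, and 0.919 and 0.869 without 2 libraries. Most of the sum at day 3 was Myh4 (median 7.21 CPM). How much of any member's level came from carried-over myofiber RNA was not tested.

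Of 23 other sarcomere-associated genes, 22 passed the filter on low counts. At day 3 over day 1, 16 rose and 2 (Ankrd1 and Ankrd2) fell, and at day 3 over uninjured 18 rose and 2 (Cmya5 and Synm) fell. Synpo2l, which encodes an actin-binding Z-disc protein, was at 0.571 to 3.95 CPM (1.99) in uninjured, 0 to 4.27 CPM (1.02) in day 1 and 76.3 to 151 CPM (102) in day 3 libraries (log2 6.33 ± 0.30 at day 3 over day 1). Cavin4, a muscle caveolar protein, was at 0.160 to 1.000 CPM (0.856) in uninjured, 6.14 to 15.7 CPM (8.83) in day 1 and 155 to 223 CPM (168) in day 3 libraries, so it rose at each step, as Xirp1 did. Ankrd1, a stress-responsive titin-binding protein, was at 58.0 to 119 CPM (84.9), 541 to 931 CPM (697) and 517 to 597 CPM (551) in the same order. Between day 1 and uninjured muscle 8 of the 22 were higher and 7 lower, against 3 higher and 29 lower among the 44 members, a difference that was not tested.

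Time was compared as ZT16 over ZT4 within each state, as the labels give it. In uninjured muscle 3 members were higher at ZT16 and 1 was lower, where 8.53% of all genes rose and 9.12% fell. Both shares of the members were below those of all genes. Actn3 was at 357, 412 and 503 CPM at ZT16, against 305, 191 and 228 CPM at ZT4, with no overlap (log2 0.81 ± 0.21, edgeR adjusted p 0.0102). Tcap was at 54.2, 64.3 and 63.9 CPM at ZT16, against 18.9, 35.1 and 29.8 CPM at ZT4 (1.12 ± 0.37, edgeR adjusted p 0.0363). Unc45b was at 16.5, 8.57 and 11.8 CPM at ZT16, against 7.34, 5.07 and 7.53 CPM at ZT4 (0.89 ± 0.31, edgeR adjusted p 0.0476). Tnnt1 was at 26.1, 27.3 and 31.4 CPM at ZT16, against 43.0, 54.5 and 63.3 CPM at ZT4, and was the only member lower at ZT16 that passed (−0.92 ± 0.23, edgeR adjusted p 0.00594). In each of the 4 genes the groups did not overlap. Over the members, 34 of 44 log2 differences were positive with a median of 0.42. The median over all genes was 0, and their share by sign is not given. The adult myofiber sum in the same libraries was 796 to 966 CPM at ZT16 and 397 to 525 CPM at ZT4, and its part in these differences was not tested. Left out alone, several libraries ended a call in edgeR. Without uninjured ZT4 replicate 2 or ZT16 replicate 3 Actn3 did not pass (adjusted p 0.0646 and 0.0586). Tcap did not pass without any 1 of the 6 uninjured libraries except ZT4 replicate 2 (0.0641 to 0.141). Unc45b did not pass without any 1 uninjured library except ZT16 replicate 2 (0.0605 to 0.258), nor without 1 of 10 injured libraries (day 1 ZT4 replicates 1, 3 and 4, day 1 ZT16 replicate 1, day 3 ZT4 replicates 1 to 4, day 3 ZT16 replicates 1 and 4; 0.0501 to 0.0595). Tnnt1 passed without each single library.

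At day 1 no member and 0% of all genes passed between ZT16 and ZT4 in edgeR. At an unadjusted p under 0.05 there were 12 of the 44 members and 920 of all 15084 genes. DESeq2 called 1 member lower and limma called 0. Of the 44 log2 differences 34 were negative, with a median of −0.62. The median over all genes was 0.007, and their share by sign is not given. Tnnc2 was at 37.2, 14.8, 41.8 and 42.7 CPM at ZT16, against 42.7, 74.5, 92.2 and 90.3 CPM at ZT4 (−1.14 ± 0.31, edgeR adjusted p 0.493). The adult myofiber sum was 151 to 266 CPM at ZT16 and 186 to 387 CPM at ZT4, with 13 of its 14 genes lower at ZT16. At day 3 no member and 0% of all genes passed in edgeR. At an unadjusted p under 0.05 there were 1 member (Myoz1) and 1003 of all 15084 genes. DESeq2 and limma also called 0 members. The median log2 difference was 0.06 over the members and 0.003 over all genes.

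The time effect itself differed between day 1 and uninjured muscle for 4 members, all more negative at day 1. Of all genes, 3.93% were more positive and 3.53% more negative (7.46% together). In both directions together, the share of members was near that of all genes. The 4 members were Tnnc2 (difference in log2 −1.77 ± 0.47, edgeR adjusted p 0.0282), Actn3 (−1.14 ± 0.28, 0.0183), Tcap (−1.87 ± 0.51, 0.0257) and Unc45b (−1.60 ± 0.47, 0.0376). Between day 3 and uninjured muscle the time effect was more positive for Tnnt1 (1.13 ± 0.30, edgeR adjusted p 0.0122) and more negative for Tcap (−1.95 ± 0.56, 0.0238). Of all genes, 6.8% and 5.97% were called in these directions, above the shares of the members. Between day 3 and day 1 the time effect differed for no member and 0% of all genes in edgeR, and DESeq2 and limma called 0 members. At an unadjusted p under 0.05 there were 5 members and 711 of all 15084 genes. Single libraries also ended these calls. For day 1 against uninjured muscle, Actn3 did not pass without uninjured ZT4 replicate 2 or ZT16 replicate 3 (0.0532 and 0.0569), and Tcap not without day 1 ZT4 replicate 3, uninjured ZT4 replicate 1 or uninjured ZT16 replicate 3 (0.0571 to 0.0601). Tnnc2 did not pass without day 1 ZT4 replicate 3 or 4, uninjured ZT4 replicate 1 or 2 or uninjured ZT16 replicate 3 (0.0532 to 0.0636). Unc45b did not pass without day 1 ZT4 replicate 1, 3 or 4, day 1 ZT16 replicate 2 or 3, uninjured ZT4 replicate 2 or uninjured ZT16 replicate 1 or 3 (0.0609 to 0.116). For day 3 against uninjured muscle, Tcap did not pass without day 3 ZT4 replicate 4, day 3 ZT16 replicate 2 or uninjured ZT4 replicate 1 (0.0524 to 0.0767), and Tnnt1 passed without each. Without uninjured ZT16 replicates 1 and 3, whose omission was chosen after the data were seen, no member passed between ZT16 and ZT4 in uninjured muscle or between the time effects.

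**Figure D5:**
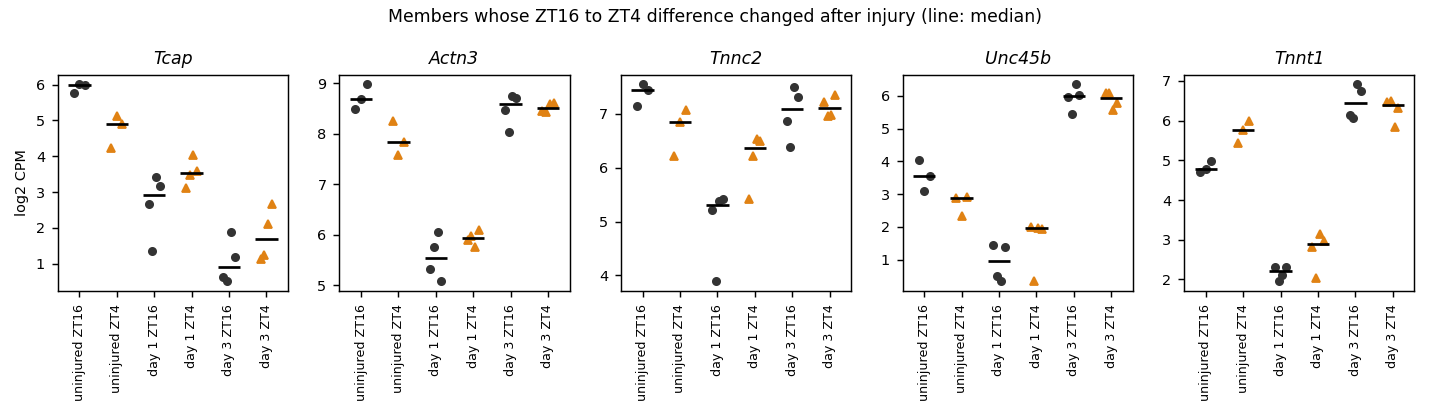
Log2 CPM by library of the 5 members whose ZT16 to ZT4 difference differed between states, with ZT16 libraries as circles, ZT4 libraries as triangles and a line at the median of each group. In uninjured muscle the 3 ZT16 libraries of Tcap and Actn3 lie above the 3 ZT4 libraries, and those of Tnnt1 below them, while at day 3 the 2 times overlap.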

How the data were processed

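The authors deposited expected counts for 103732 transcripts in each of 22 libraries. They were summed per Ensembl gene and rounded. Of the 43430 genes, 42546 were found in GENCODE M21 (GRCm38). The deposited TPM, scaled by the authors for transcript length and library size, was summed over transcripts for shares and for levels per length. Effective lengths, also deposited per the file headers, gave the offsets of 1 alternative fit. RSEM 1.3.3, STAR 2.5.2, DESeq2, Trimmomatic 0.33 and the mm10 build are named in the submitters' processing notes, and the role of each is not given in the sources used here. Per the labels, RNA came from lightly fixed cells and libraries from SMART-seq v4.

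All libraries entered 1 edgeR 4.0.16 quasi-likelihood fit (R 4.3.3, TMM factors 0.942 to 1.094, common dispersion 0.0444) with 1 mean for each of the 6 groups. States were averaged over both times. The filter on low counts (minimum 10, total 15) kept 15084 genes and left out 28346, and p-values were adjusted by Benjamini-Hochberg over all 15084 at 0.05. Totals of 5965957 to 9751536 counts limit low genes, and CPM is relative to a library's other RNA. DESeq2 1.42.0 and limma 3.58.1 were other tools. The fits were also run on simulated data with far fewer changed genes than were called at day 3 over day 1. That outcome is not given and does not bear on scaling when many genes change. Levels, shares and correlations (log2 of CPM + 0.5) used scipy 1.17.1, pandas 2.3.3 and numpy 2.4.6 under Python 3.11.15. Errors are SE unless marked SD, and exact permutation tests were two-sided. The SE of an edgeR change was back-calculated, as the absolute log2 fold change over the square root of the test's F statistic. The named genes followed a fixed rule (paralog groups, a list of Z-disc and assembly genes, and the 5 highest and 5 lowest changes per comparison), and other members are named as well. The members and lists were chosen with earlier results of these data known.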

Additional observations from a re-analysis of the deposited data

Results flagged for a closer look

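Among 188 sets of 4 libraries (1 member with a mean of at least 1 CPM, or 1 share, in 1 group), 9 held a library far from the other 3, where chance flags about 1 in 20. At day 3 ZT4, Lmod2 was at 4.55 CPM in replicate 1 (others 1.44 to 1.93), Myoz2 at 3.77 CPM in replicate 1 (3.27 to 3.34), Mybpc1 at 11.4 CPM in replicate 3 (19.6 to 21) and Myom1 at 3.27 CPM in replicate 3 (6.04 to 6.40). At day 3 ZT16, Myot was at 3.68 CPM in replicate 3 (0.591 to 1.06). At day 1 ZT4, Myl3 was at 4.98 CPM in replicate 3 (0.631 to 1.10), Neb at 6.82 CPM in replicate 1 (11.8 to 12.2) and Unc45b at 1.26 CPM in replicate 2 (3.86 to 3.96). At day 1 ZT16, Myl4 was at 1.52 CPM in replicate 4 (2.54 to 2.58).

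The difference between ZT16 and ZT4 was itself different between states in 6 tests (edgeR). Those 4 members at day 1 minus uninjured and 2 at day 3 minus uninjured stand beside 7.46% and 12.8% of all genes. The first share of members was near that of all genes and the second was below it. Under all 33 alternatives, 0 of the 6 calls held. At day 1 minus uninjured the log2 values were −1.77 ± 0.47 for Tnnc2 (edgeR adjusted p 0.0282), −1.14 ± 0.28 for Actn3 (0.0183), −1.87 ± 0.51 for Tcap (0.0257) and −1.60 ± 0.47 for Unc45b (0.0376). At day 3 minus uninjured they were 1.13 ± 0.30 for Tnnt1 (0.0122) and −1.95 ± 0.56 for Tcap (0.0238).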

How the results depend on the processing

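Counts between states moved little. Leaving out each library in turn, 31 members rose and 10 to 11 fell at day 3 over day 1, 28 to 29 rose and 11 fell at day 3 over uninjured, and 3 rose and 25 to 30 fell at day 1 over uninjured. Of 42, 39 and 32 calls, 39, 35 and 21 held under all 33 alternatives. Ckm, Csrp3 and Myl3 were lost at day 3 over day 1 under at least 1. Without the 4 day 3 libraries with the most genes detected (ZT4 replicates 1 and 2, ZT16 replicates 3 and 4, chosen after seeing the data), 31 rose and 8 fell at day 3 over day 1, and 25 rose and 11 fell at day 3 over uninjured. The changes that reversed were Ttn at day 1 over uninjured with effective length offsets (log2 0.38) and Flnc at day 1 over uninjured without uninjured ZT16 replicates 1 and 3 (0.13), and the cause was not tested.

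Comparisons of time were less stable. The share of all genes called under each alternative is not given, so these counts of members have no background beside them. For ZT16 over ZT4 in uninjured muscle, leaving out 1 library gave 0 to 5 higher and 1 to 3 lower. For the time effect it gave 0 to 1 more positive and 0 to 5 more negative at day 1 minus uninjured, and 1 to 3 and 0 to 2 at day 3 minus uninjured. With no filter on low counts, 12 rose and 4 fell in uninjured muscle, 1 rose and 11 fell at day 1, 2 fell at day 3, and the time effect gave 2 and 18 (day 1 minus uninjured), 3 and 7 (day 3 minus uninjured) and 6 and 1 (day 3 minus day 1). DESeq2 gave 1 lower at day 1, and 1 and 7 at day 1 minus uninjured and 2 more negative at day 3 minus uninjured. Limma gave 5 and 0 in uninjured muscle, 2 more negative at day 1 minus uninjured and 0 and 3 at day 3 minus uninjured. Effective length offsets left 1 higher in uninjured muscle. Fits of only the groups compared gave 2 more negative in each of these differences. Without those 4 day 3 libraries it was 0 and 4 at day 3 minus uninjured. Without uninjured ZT16 replicates 1 and 3, also chosen after seeing the data, no member passed in uninjured muscle or in these differences (0 in each direction), and the library left is assumed to vary like the other groups.

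Shares passed in 8 cases at day 3 over day 1, 6 to 7 at day 3 over uninjured and 4 to 5 at day 1 over uninjured without each library. ZT4 or ZT16 libraries alone gave 0 in all 3 comparisons, since 4 against 4 or fewer cannot pass after adjustment. Members with r of at least 0.8 numbered 14 in place of 8 with the sum of Myh4, Pvalb and Ckmt2 in uninjured libraries, and at day 3 10 (centred on time) or 3 (without 2 libraries) in place of 6 with the adult sum. With the differentiation sum they numbered 4 or 6 in place of 1 in uninjured libraries in those settings, and, without 2 libraries, 1 in place of 0 at day 1 and 8 in place of 20 at day 3.

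Same-numbered libraries showed little shared deviation (51 pairs, correlations −0.0957 to 0.149, 2 over 0.1, and 8 of 22 libraries closest to their own number). The main fit used no pairing by replicate number. These correlations cannot exclude that same-numbered libraries share a mouse or batch, which the labels do not state. The replicate block gave 2 more negative at day 3 minus uninjured in place of 1, and 30 in place of 29 lower at day 1 over uninjured. Depth limits members with few counts, such as Myl2 and Myom3.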
